A study of Mus musculus with 15 samples.

Results

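CD8 T cells were followed in single-cell RNA counts of whole mouse aortas. A cell was taken as a CD8 T cell when it had between 200 and 7000 detected RNAs, no more than 25% mitochondrial UMIs (unique molecular identifiers, each a counted RNA molecule), a UMI of at least 2 of Cd3d, Cd3e, Cd3g and Trac, a UMI of Cd8a or Cd8b1, no UMI of Cd4, Foxp3, Ms4a1, Cdh5 or Csf1r, and at most 1 UMI of Lum and Pdgfra together. This rule found 2358 CD8 T cells among 128019 cells kept, which was 1.84% of all cells and 39.3% of the 5994 T cells. The rule used these 13 genes, so their levels are a description of the choice. Of the 2358 cells, 1889 (80.1%) had all 4 of Cd3d, Cd3e, Cd3g and Trac, and the median number of Cd8a and Cd8b1 UMIs was 9. At the edge of the rule, 161 cells (6.83%) were taken on 1 Cd8a or Cd8b1 UMI and 80 (3.39%) on 2 of the 4 T cell genes. Just outside it, 637 T cells had UMIs of both Cd8 and Cd4 and 1623 had neither.

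The libraries fell into 4 groups of C57BL/6N mice: young vehicle (Y VEH, 2 female and 2 male libraries), young fisetin (Y FIS, 2 and 2), old vehicle (O VEH, 2 female and 1 male) and old fisetin (O FIS, 2 and 2). The mice were 3 or 27 months of age by the labels, while the methods of the study give another age for the young mice. Each library pooled the aortas of 3 mice by its label, and the methods of the study allow fewer. Vehicle or fisetin, a plant flavonoid used as a senolytic, was given by mouth for 1 week, paused for 2 weeks and given for 1 week more. Perivascular fat was removed, the vessel was digested and viable cells were sorted without a gate on cell type, so the CD8 T cells could come from the wall, the adventitia, lymphoid tissue attached to it or blood left after perfusion.

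CD8 T cells recognize peptides on MHC class I and kill infected or altered cells with perforin and granzymes. Naive cells circulate through lymph nodes under CCR7 and S1PR1 and are held in that state by TCF1 (Tcf7) and LEF1. Cells that have met antigen turn to T-bet, EOMES, ID2 and BLIMP1 (Prdm1), make CCL5 and interferon gamma and enter tissues through CXCR3 and CXCR6. In old mice, CD8 T cells with granzyme K and PD-1 are known to collect in many organs.

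A library held 66 to 350 CD8 T cells, with a median of 5398 to 12896 UMIs per cell and 627768 to 3750891 UMIs in all. The 2358 cells had 2357 distinct barcodes, so 1 barcode was shared by 2 libraries. The labels do not say whether libraries of a group came from separate cohorts, and p-values measure the spread between these libraries. In 2 libraries, many of these cells carried genes of immature T cells of the thymus (Rag1, Rag2, Ptcra, Dntt or Arpp21, chosen after the values were seen). In Y VEH F1, 108 of 226 CD8 T cells (47.8%) had a UMI of at least 1 of them, and 249 T cells of that library had both Cd8 and Cd4. In O FIS F2 the number was 28 of 94 (29.8%). The other libraries had 0 to 10.6%. Their source was not tested. The 224 CD8 T cells (9.50%) with such a UMI are called the cells with thymocyte genes, and values without them are given beside the results they changed most. The plot of CD8 T cells per library shows these shares.

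**Figure D1:**
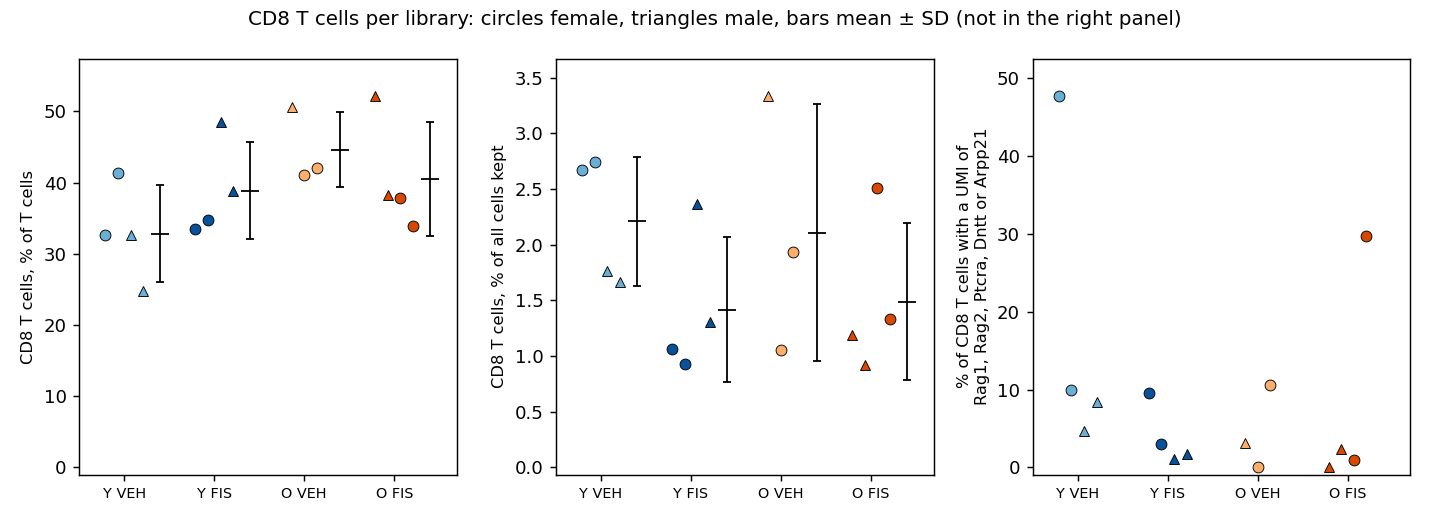
CD8 T cells per library, as a percentage of T cells (left) and of all cells kept (middle), and the percentage of CD8 T cells with a UMI of a thymocyte gene (right), by group. Each point is a library, circles female and triangles male, with bars for mean ± SD in the left and middle panels. The groups overlap in both of those panels, and Y VEH F1 at 47.8% and O FIS F2 at 29.8% stand above the rest on the right.

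The share of CD8 T cells overlapped between the groups under the rule above. CD8 T cells made up 32.8% ± 6.78 (SD, n = 4) of T cells in Y VEH and 38.9% ± 6.79 (n = 4) in Y FIS. The old groups were at 44.6% ± 5.26 (O VEH, n = 3) and 40.5% ± 8.01 (O FIS, n = 4). The difference of 11.7 percentage points between O VEH and Y VEH had an exact two-sided permutation p of 0.114 (adjusted p = 0.457 over 4 comparisons). Without all T cells with a thymocyte gene UMI, the means were 34.2% (Y VEH), 40.0% (Y FIS), 46.1% (O VEH) and 44.8% (O FIS). O FIS F2 then moved from 33.9% to 44.3%. With both Cd8a and Cd8b1 required, the libraries did not overlap, at 34.97 to 44.0% in O VEH and 17.6 to 33.2% in Y VEH, nor did they without a cell filter, at 41.5 to 50.6% and 24.6 to 41.3% (exact permutation p = 0.0571 and adjusted p = 0.229 for both). As a share of all cells, the means ran from 1.42% ± 0.651 in Y FIS to 2.21% ± 0.576 in Y VEH (n = 4 each), and the smallest exact permutation p was 0.143 (adjusted p = 0.571) for Y FIS against Y VEH. With 3 libraries against 4, the smallest two-sided p that this test can give is 0.0571.

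Within CD8 T cells, some RNAs of the naive and effector states differed between old and young mice. Between O VEH and Y VEH, 387 of 9484 RNAs tested (4.08%) were differentially abundant RNAs (DARs: edgeR quasi-likelihood adjusted p under 0.05, log2 fold change beyond 0.25, a UMI in more than 10% of cells in at least 1 of both groups). Of these, 282 were higher (2.97%) and 105 lower (1.11%) in old mice. In 348 of the 387 the libraries of O VEH and Y VEH did not overlap, as in 1374 of all 9484 RNAs (14.5%). The median log2 fold change over all RNAs was -0.01. Without the cells with thymocyte genes, 552 of 9279 RNAs (5.95%) were DARs, 298 higher (3.21%) and 254 lower (2.74%), of which 340 were shared with the 387. The share of DARs that were higher thus moved from 72.9% to 54.0%.

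The gene lists that follow are to be read against that background of 4.08%. They were written with earlier results of these data known, so their counts are not independent evidence. Of 12 genes of the naive state and of lymph node homing, 3 fell with age and none rose, and the median log2 fold change of the list was -0.72. The summed level of the list overlapped, at 4786 to 5764 CPM in Y VEH and 2905 to 5081 CPM in O VEH. The highest of these old libraries was O VEH M1. Lef1, a transcription factor of naive T cells, was at 682, 790, 705 and 740 CPM (UMIs of the summed CD8 T cells scaled to a common library total with edgeR's TMM factors) in Y VEH and at 434, 412 and 280 CPM in O VEH. The groups did not overlap, and the log2 fold change was -0.96 ± 0.18 (SE, adjusted p = 0.00726, edgeR). Tcf7, its partner, fell by 1.12 ± 0.28 (adjusted p = 0.0305, edgeR).

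Dapl1, a marker of naive and early memory CD8 T cells, was at 153, 488, 400 and 224 CPM in Y VEH and at 89.9, 102 and 22.2 CPM in O VEH. All old libraries lay below all young ones, by a log2 fold change of -2.17 ± 0.48 (adjusted p = 0.0166, edgeR). Ccr7, the chemokine receptor for entry into lymph nodes, was at 89.9, 152, 103 and 86.8 CPM in Y VEH and at 76.1, 47.0 and 18.9 CPM in O VEH. These groups did not overlap either, but the test was missed with all CD8 T cells (log2 fold change -1.20 ± 0.38, adjusted p = 0.0967, edgeR) and passed without the cells with thymocyte genes (-1.51 ± 0.35, adjusted p = 0.0156, edgeR). In that set of cells 7 of the 12 genes fell, with S1pr1, Igfbp4 and Bach2 among the additions.

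The list of genes of memory and effector transcription held 9 genes that could be tested, of which 5 rose and 1 fell, with a median log2 fold change of 1.77. Tbx21, which encodes T-bet, was at 10.8, 23.5, 54.3 and 40.8 CPM in Y VEH and at 106, 93.9 and 97.4 CPM in O VEH. The old libraries were close to each other and all above the young ones, and the log2 fold change was 1.79 ± 0.32 (adjusted p = 0.00580, edgeR). Eomes rose by 1.77 ± 0.42, Bhlhe40 by 2.09 ± 0.47 and Prdm1, the gene of BLIMP1, by 2.77 ± 0.51 (adjusted p = 0.0225, 0.0194 and 0.00637, edgeR). Of the 15 fits that left out 1 library, Eomes missed the test in 6, Bhlhe40 in 4 and Prdm1 in 0. Here and below, the 15 include fits that left out a library of neither group compared, where both groups stayed whole.

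ID2 and ID3 are paired inhibitors of E proteins, with ID2 linked to effector and ID3 to memory precursor cells. Id2 was at 70.6, 127, 144 and 111 CPM in Y VEH and at 333, 445 and 391 CPM in O VEH. Id3 was at 102, 117, 84.8 and 57.3 CPM in Y VEH and at 22.9, 34.5 and 42.8 CPM in O VEH. Neither gene overlapped between the groups, and they moved in opposite directions, with log2 fold changes of 1.78 ± 0.29 for Id2 and -1.52 ± 0.33 for Id3 (adjusted p = 0.00296 and 0.0152, edgeR). Zeb2, a factor of terminal effector cells, had a log2 fold change of 1.41 ± 0.57 that did not pass (adjusted p = 0.203, edgeR).

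**Figure D2:**
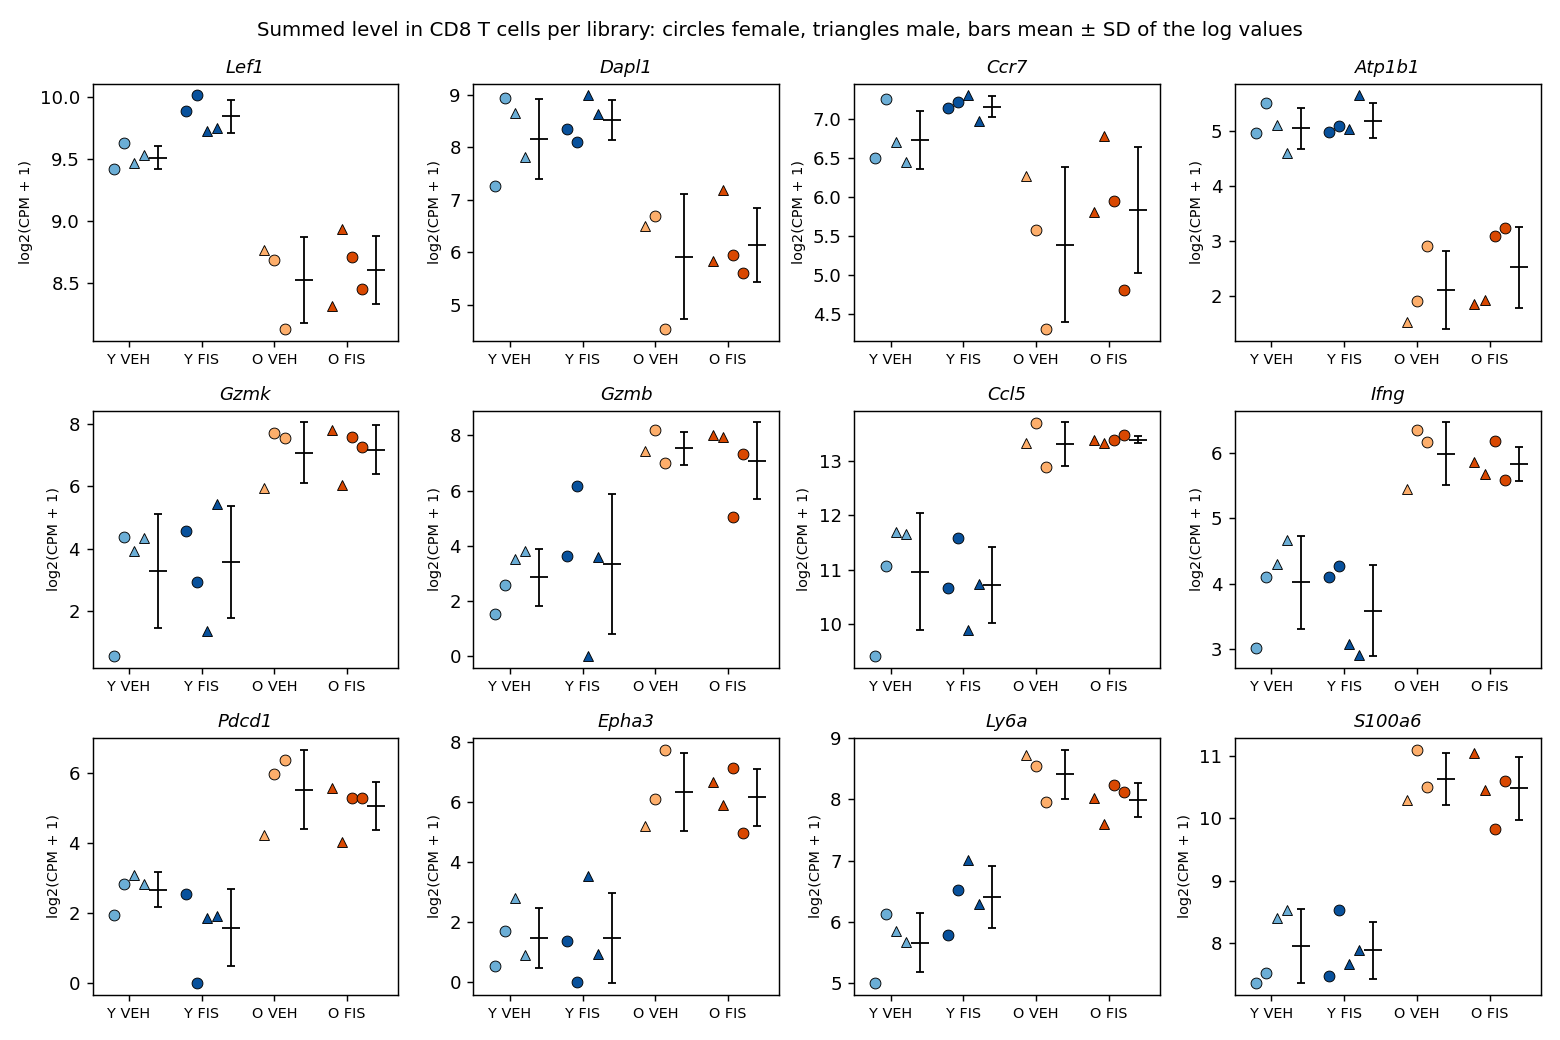
Level of 12 RNAs in the summed CD8 T cells of each library, on the scale log2(CPM + 1), by group. Each point is a library, circles female and triangles male, with bars for mean ± SD of the log values. Lef1, Dapl1, Ccr7 and Atp1b1 are lower and the other 8 higher in every O VEH library than in all Y VEH libraries, and Ccr7 misses the test with all cells.

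Of 12 cytotoxic effector genes, 8 rose and none fell (median log2 fold change 1.37). Gzmk encodes granzyme K (chr13:113308142-113362442, GRCm39). It was at 0.471, 19.6, 14.1 and 19.1 CPM in Y VEH and at 61.3, 210 and 187 CPM in O VEH. Every old library was above every young one, and the log2 fold change was 3.47 ± 0.74 (adjusted p = 0.0152, edgeR).

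Gzmb encodes granzyme B (chr14:56496295-56499717, GRCm39), which triggers apoptosis in the target cell. It was at 1.88, 5.03, 10.4 and 13 CPM in Y VEH and at 170, 289 and 126 CPM in O VEH, and the log2 fold change was 4.83 ± 0.90 (adjusted p = 0.00656, edgeR). The groups were far apart. Gzma, the granzyme gene next to Gzmk, ranged from 14.9 to 98.9 CPM in Y VEH and from 18.9 to 282 CPM in O VEH, so that the groups overlapped, and its log2 fold change of 0.98 ± 1.16 did not pass (adjusted p = 0.728, edgeR).

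Prf1, which encodes the pore former perforin, rose by 1.38 ± 0.32, and Nkg7, a granule membrane protein, by 1.37 ± 0.29 (adjusted p = 0.0209 and 0.0139, edgeR). Fasl, the ligand of the death receptor Fas, was at 0.942, 6.15, 23.8 and 24.3 CPM in Y VEH and at 83.7, 58.0 and 94.7 CPM in O VEH. Ifng, the gene of interferon gamma, was at 7.06, 16.2, 18.6 and 24.3 CPM in Y VEH and at 42.4, 80.1 and 70.9 CPM in O VEH. Both were apart in all libraries, with log2 fold changes of 2.90 ± 0.46 and 1.92 ± 0.34 (adjusted p = 0.00240 and 0.00552, edgeR). Gzmm and Ctsw also rose, by 2.42 ± 0.65 and 0.87 ± 0.21, but missed the test without the cells with thymocyte genes (adjusted p = 0.0582 and 0.0829, edgeR). Gzmm was also lost in 8 of 15 fits that left out 1 library, with a log2 fold change of 1.08 without O VEH M1.

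Of the 4 chemokine ligands, 3 rose (median 1.90). Ccl5, which attracts T cells and monocytes, was at 682, 2150, 3320 and 3230 CPM in Y VEH and at 10200, 13200 and 7580 CPM in O VEH. The lowest young value was that of Y VEH F1, the library with the most cells with thymocyte genes, and all old libraries were above all young ones. The log2 fold change was 2.17 ± 0.43 with all cells and 1.87 ± 0.34 without those cells (adjusted p = 0.00957 and 0.00328, edgeR). Ccl4 rose by 2.55 ± 0.67 and Xcl1, which acts on cross-presenting dendritic cells, by 1.63 ± 0.37 (adjusted p = 0.0414 and 0.0196, edgeR). The call for Ccl4 was lost in 8 of the 15 fits that left out 1 library, where its log2 fold change ran from 1.75 (without O VEH F2) to 3.16. Ccl3 had a log2 fold change of 1.26 ± 0.65 (adjusted p = 0.341, edgeR).

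Of 9 chemokine receptors, 4 rose (median 1.32). Ccr2, the receptor of CCL2, was at 11.8, 8.95, 14.9 and 19.1 CPM in Y VEH and at 98.5, 92.5 and 60.6 CPM in O VEH. The groups did not overlap, and the log2 fold change was 2.66 ± 0.42 (adjusted p = 0.00240, edgeR). Cxcr3 rose by 1.60 ± 0.34 and Cxcr6 by 1.32 ± 0.33 (adjusted p = 0.0151 and 0.0293, edgeR).

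All 11 genes of inhibitory receptors and exhaustion had positive log2 fold changes (median 1.77), and 3 passed the test. The summed level of the list overlapped through O VEH M1, at 551 to 694 CPM in Y VEH and 685 to 1454 CPM in O VEH. Pdcd1, the gene of the inhibitory receptor PD-1 (chr1:93966027-93980312, GRCm39), was at 2.83, 6.15, 7.44 and 6.08 CPM in Y VEH and at 17.8, 62.2 and 81.7 CPM in O VEH. The groups did not overlap, although O VEH M1 was far below the other old vehicle libraries, and the log2 fold change was 3.10 ± 0.49 (adjusted p = 0.00240, edgeR). Lag3, an inhibitory receptor for MHC class II, rose by 2.88 ± 0.58 and Entpd1, the gene of the ectonucleotidase CD39, by 2.48 ± 0.36 (adjusted p = 0.0108 and 0.00174, edgeR).

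Tox, a factor that sustains the exhausted state, did not pass with a log2 fold change of 0.60 ± 0.22, nor did Ctla4 with 0.80 ± 0.41 or Tigit with 1.77 ± 0.58 (adjusted p = 0.158, 0.335 and 0.107, edgeR). Havcr2, the gene of TIM-3, had an adjusted p of 0.0340 (edgeR) but was detected in at most 7.65% of the cells of a group, below the limit for a DAR. A list of 11 genes known from age-linked CD8 T cells, which shares members with the lists above, had 8 that rose and a median log2 fold change of 2.17. One of them, S100a6, a calcium-binding protein, was at 165, 183, 339 and 369 CPM in Y VEH and at 1260, 2190 and 1450 CPM in O VEH, a log2 fold change of 2.74 ± 0.34 (adjusted p = 0.000847, edgeR). The others were Gzmk, Pdcd1, Eomes, Ccl5, Ccl4, Cxcr6 and Lgals1.

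Of 6 genes of tissue residency tested, Cxcr6 and Rgs1 rose and Itgae fell. Itgae, which encodes the integrin CD103, was at 23.1, 45.3, 29.8 and 15.6 CPM in Y VEH and at 8.64, 5.52 and 9.20 CPM in O VEH, all old libraries being lower (log2 fold change -1.77 ± 0.48, adjusted p = 0.0475, edgeR), a call lost in 9 of 15 fits that left out 1 library (largest adjusted p = 0.151, without O VEH F1). Rgs1, a brake on chemokine receptor signalling, rose by 1.97 ± 0.39 (adjusted p = 0.00923, edgeR), and Cd69, an activation and residency marker, had a log2 fold change of 0.18 ± 0.22 (adjusted p = 0.737, edgeR). Of 15 surface receptors of memory and effector cells only Il2rb and Il18r1 were DARs, rising by 1.32 ± 0.33 and 1.20 ± 0.27 (adjusted p = 0.0293 and 0.0184, edgeR), the latter with overlap between the groups. None of 12 genes of T cell receptor signalling passed (median 0.27). Of 7 genes of MHC class I presentation, Tap1, a peptide transporter, rose (median 0.47), and of 4 tested of 10 secreted senescence factors only Ccl4 did (median 1.07).

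All 14 interferon-stimulated genes had positive log2 fold changes (median 1.55), and 7 were DARs: Isg15, Ifit1, Ifit3, Oasl2, Zbp1, Ifi27l2a and Ly6a. Ly6a, the gene of Sca-1 (chr15:74863840-74869880, GRCm39), was at 31.1, 68.8, 56.6 and 50.4 CPM in Y VEH and at 423, 373 and 248 CPM in O VEH. All old libraries were well above all young ones, with a log2 fold change of 2.77 ± 0.28 and the smallest adjusted p of this comparison (0.000318, edgeR). Ifit3, an antiviral protein, was at 6.59, 7.27, 7.44 and 5.21 CPM in Y VEH and at 64.5, 16.6 and 23.8 CPM in O VEH. The young libraries were close together and O VEH M1 was the highest, and the log2 fold change was 2.43 ± 0.45 (adjusted p = 0.00656, edgeR). O VEH M1 was also the highest for Isg15, Ifit1, Oasl2, Zbp1 and Ifi27l2a. Without the cells with thymocyte genes, Zbp1 missed the test (adjusted p = 0.0512, edgeR) and Irf7 passed it (0.0439). Of the 7 DARs only Ly6a passed in all 15 fits that left out 1 library. Without O VEH M1 the other 6 missed the test, with log2 fold changes of 0.91 for Isg15, 1.26 for Ifit1, 1.48 for Ifit3, 1.13 for Oasl2, 0.71 for Zbp1 and 1.03 for Ifi27l2a (adjusted p = 0.0908 to 0.436, edgeR). Zbp1 was lost in 9 of the 15 fits, Isg15 and Ifi27l2a in 4, Oasl2 in 3 of the 14 that tested it, Ifit1 in 2 and Ifit3 in 1.

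The interferon-stimulated response element, taken here as GAAA, any 2 bases and GAAA again, and searched on both strands, is the site of the interferon-activated factor ISGF3. It was present in the promoters (250 bases before to 50 after the start of the canonical transcript, GRCm39 with GENCODE vM39) of 8 of the 14 genes of the list and of 4 of its 7 DARs, against 835 of 21757 protein-coding promoters (3.84%). The list was chosen for its response to interferon, so this contrast with all promoters says nothing about age. The share was no higher in the 7 DARs than in the 14 genes. Matched letters are in capitals, and overlapping matches run into one block. The 4 promoters are printed from 5′ to 3′ on the strand of the gene, to show where the element lies in these DARs. They are Isg15 (chr4:156285254-156285553, minus strand), Ifit1 (chr19:34618021-34618320, plus strand), Ifit3 (chr19:34560649-34560948, plus strand) and Zbp1 (chr2:173060675-173060974, minus strand).
Isg15: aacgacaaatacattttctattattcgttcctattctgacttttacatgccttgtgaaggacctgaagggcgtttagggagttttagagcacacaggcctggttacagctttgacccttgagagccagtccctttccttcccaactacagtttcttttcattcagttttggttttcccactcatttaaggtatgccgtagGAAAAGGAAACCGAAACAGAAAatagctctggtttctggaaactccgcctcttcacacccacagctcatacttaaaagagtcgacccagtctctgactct
Ifit1: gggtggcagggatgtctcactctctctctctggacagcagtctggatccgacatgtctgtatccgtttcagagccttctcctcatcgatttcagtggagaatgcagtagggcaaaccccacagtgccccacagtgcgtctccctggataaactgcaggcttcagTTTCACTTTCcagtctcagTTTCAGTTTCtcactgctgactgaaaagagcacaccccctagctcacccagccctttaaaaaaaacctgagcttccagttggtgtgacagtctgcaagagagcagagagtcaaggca
Ifit3: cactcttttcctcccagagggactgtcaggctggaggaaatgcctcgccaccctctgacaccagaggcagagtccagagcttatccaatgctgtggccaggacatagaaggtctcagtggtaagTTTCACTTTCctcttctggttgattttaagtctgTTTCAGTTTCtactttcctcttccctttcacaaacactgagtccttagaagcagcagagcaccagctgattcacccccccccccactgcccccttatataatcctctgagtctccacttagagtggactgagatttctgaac
Zbp1: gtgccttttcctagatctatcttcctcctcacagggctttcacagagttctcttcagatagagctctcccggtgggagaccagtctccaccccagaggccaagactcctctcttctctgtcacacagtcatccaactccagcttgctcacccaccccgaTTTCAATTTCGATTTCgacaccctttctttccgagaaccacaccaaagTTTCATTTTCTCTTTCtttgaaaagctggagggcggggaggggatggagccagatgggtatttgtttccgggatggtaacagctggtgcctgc

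Isg15 held 3 overlapping matches, the first 50 bases before the start. Ifit1 held 2, at 86 and 67 bases, Ifit3 held 2, at 126 and 92 bases, and Zbp1 held 4, from 91 to 37 bases before the start. A match of letters is a description and was not tested as a binding site. The T-box letters AGGTGTGA, searched on both strands, were in none of the 12 cytotoxic and 4 chemokine promoters and in 1.13% of all promoters.

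Genes of cell cycle arrest and senescence gave no DAR among 8 tested (median -0.07). Cdkn1a, the gene of p21, was at 3.30, 2.80, 2.98 and 1.74 CPM in Y VEH and at 12.4, 2.76 and 15.2 CPM in O VEH. The groups overlapped through O VEH F1, and the log2 fold change of 1.96 ± 0.63 did not pass (adjusted p = 0.0997, edgeR). Cdkn2a, the gene of p16, was at 0.471, 0, 2.23 and 0 CPM in Y VEH and at 1.08, 5.52 and 13.5 CPM in O VEH, and its log2 fold change of 3.10 ± 1.12 did not pass either (adjusted p = 0.163, edgeR). The 8 proliferation genes gave no DAR, and their direction depended on the cells with thymocyte genes: the median was -0.45 with and 1.19 without them. None of 10 immediate early and stress genes tested passed, and all 10 had negative log2 fold changes (median -0.19).

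Among the 12 RNAs with the largest increase whose groups did not overlap were, besides Gzmb and Gzmk, the haemoglobin genes Hba-a1, Hba-a2 and Hbb-bs. Together with Hbb-bt, their summed level was 33.0 to 134 CPM in Y VEH and 19.5 to 150 CPM in Y FIS. In the old groups it was 273 to 31192 CPM (O VEH) and 119 to 2362 CPM (O FIS). The high values came from O VEH F1 and O VEH M1. Red cell RNA thus moved with age between the vehicle groups, and its part in the other differences was not tested.

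Epha3 (chr16:63363897-63684538, GRCm39), an ephrin receptor, was at 0.471, 2.24, 5.95 and 0.868 CPM in Y VEH and at 35.4, 67.7 and 213 CPM in O VEH. It was near the limit of detection in the young and plain in every old library, a log2 fold change of 5.42 ± 0.85 (adjusted p = 0.00240, edgeR). Lgals3, the gene of galectin 3, was at 8.95, 3.91, 8.19 and 12.2 CPM in Y VEH and at 114, 123 and 80.1 CPM in O VEH, a log2 fold change of 3.72 ± 0.47 (adjusted p = 0.000859, edgeR). Car5b, Ttn, Gm15987 and 4930549P19Rik rose by 5.13, 3.79, 4.33 and 3.68 on the log2 scale. Without O VEH M1 the increase was 2.19 for Ttn and 2.89 for 4930549P19Rik, and both missed the test (adjusted p = 0.283 and 0.0653, edgeR), and Ttn was lost in 4 of the 14 fits that tested it. Car5b ran from 4.57 without Y VEH F1 to 7.88 without Y VEH M1, and was no DAR without O VEH F2.

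The largest decrease was in Atp1b1 (chr1:164264678-164285957, GRCm39), the beta subunit of the sodium-potassium pump. It was at 30.1, 44.7, 33.5 and 23.4 CPM in Y VEH and at 1.89, 2.76 and 6.49 CPM in O VEH. The groups were far apart, and the log2 fold change was -3.21 ± 0.39 with all CD8 T cells and -4.18 ± 0.37 without the cells with thymocyte genes (adjusted p = 0.000847 and 1.57e-05, edgeR). Ifngr2, the signalling chain of the interferon gamma receptor, was at 26.4, 26.8, 12.7 and 15.6 CPM in Y VEH and at 3.51, 5.52 and 5.41 CPM in O VEH (log2 fold change -2.16 ± 0.33, adjusted p = 0.00240, edgeR). Ifngr2 was thus lower where Ifng was higher. Pecam1, the adhesion molecule CD31, was also lower, by a log2 fold change of -1.29 ± 0.17 (adjusted p = 0.000936, edgeR).

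Basp1, Tnfrsf13b, Slc28a2b, Gm43698, Gm12840, Ppic, Myb and Izumo1r fell, with log2 fold changes of -2.77, -2.55, -2.48, -2.42, -2.42, -2.35, -2.18 and -2.09. The calls were lost in 9 of 15 fits that left out 1 library for Myb, in 7 for Izumo1r, in 6 for Gm43698, in 3 for Slc28a2b, in 2 for Ppic and Basp1 and in 1 for Gm12840. Basp1 and Tnfrsf13b were no DARs without the cells with thymocyte genes, where they missed the limit on detection. Acta2, a smooth muscle gene, fell by 2.81 ± 0.69 (adjusted p = 0.0288, edgeR). The 5 smooth muscle markers summed to 25.2 to 234 CPM in Y VEH and 17.7 to 161 CPM in Y FIS, against 14.8 to 18.9 CPM (O VEH) and 11.2 to 76.2 CPM (O FIS) in the old groups, and the part of free smooth muscle RNA was not tested. Cmss1, Cdk8, Lars2 and Camk1d fell, with log2 fold changes of -1.90, -1.51, -1.59 and -0.91. They are 4 of 5 RNAs of a list taken from earlier results of these data for being lower with age across aortic cells, so their direction is not independent evidence.

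Markers of other cells were uneven between libraries. No tested marker of NK cells (4 tested), gamma delta T cells (1), CD4 T cells (3), B cells (5), fibroblasts (6), macrophages (6) or neutrophils (2) was a DAR between O VEH and Y VEH, and no adrenal marker was abundant enough to be tested. Of 5 endothelial markers only Pecam1, which T cells also express, fell. Their sum was lower in every old library in both age comparisons, at 160 to 246 CPM in Y VEH against 106 to 139 CPM in O VEH, and at 222 to 310 CPM in Y FIS against 123 to 183 CPM in O FIS. The 7 B cell markers summed to 20603 CPM in Y VEH M2 and 12166 CPM in O FIS F1, while the group medians were 287 to 485 CPM, and the 4 neutrophil markers reached 3515 CPM in O FIS F1. Their part in the results was not tested. NK markers summed to 44.7 to 137 CPM in Y VEH and 33.5 to 127 CPM in O VEH, without separation of the groups. Of the CD8 T cells, 205 (8.69%) had a UMI of Ncr1, Klrb1c or Trdc, markers of NK and gamma delta T cells.

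The age difference was tested again between the fisetin groups, which share no library with the vehicle groups. Both comparisons came from the same fit of all 15 libraries, with a shared estimate of the spread and a common sex term. Their calls, and the overlap of calls below, are thus not fully independent. Between O FIS and Y FIS, 182 of 9484 RNAs (1.92%) were DARs, 115 higher (1.21%) and 67 lower (0.706%). Of the 387 DARs of the vehicle groups, 383 (99.0%) had the same direction between the fisetin groups, against 62.0% of all 9484 RNAs. There were 123 DARs of the same direction in both comparisons, which was 31.8% of the 387 and 67.6% of the 182. The median log2 fold change of the 282 higher DARs was 1.42 between the vehicle groups and 0.96 between the fisetin groups, and that of the 105 lower DARs was -1.29 and -0.75. The 387 were chosen on their values between the vehicle groups. Without the cells with thymocyte genes, 451 of 9279 RNAs (4.86%) were DARs between the fisetin groups and 292 were shared.

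**Figure D3:**
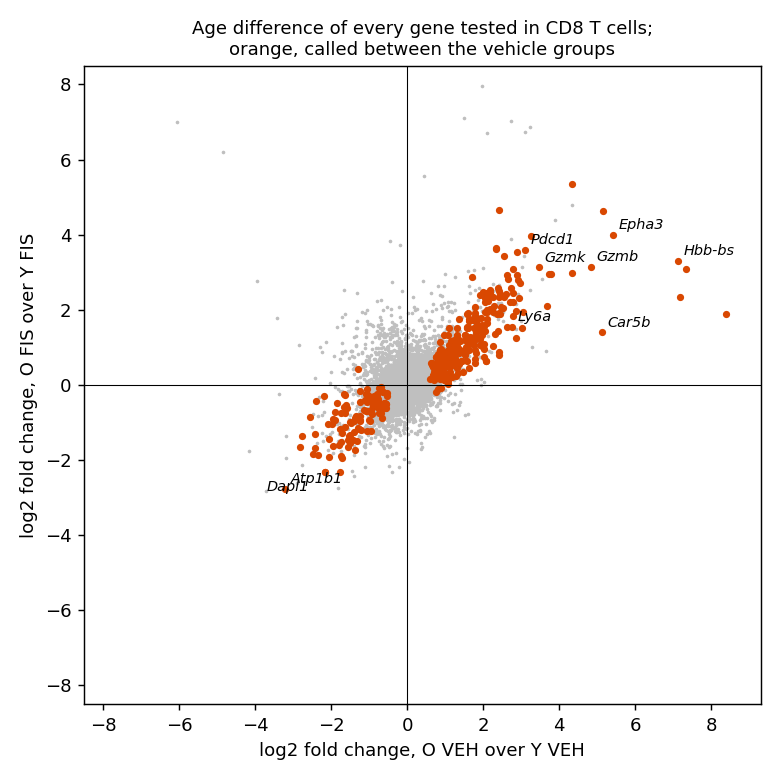
Log2 fold change of old over young in CD8 T cells for each of 9484 RNAs, between the vehicle groups (x axis) and between the fisetin groups (y axis). Orange points are the 387 DARs of the vehicle groups, of which 383 have the same direction on both axes. Haemoglobin genes such as Hbb-bs and the gene Car5b lie far out on the x axis and lower on the y axis.

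Gzmk was at 22.5, 6.66, 1.59 and 42.7 CPM in Y FIS and at 221, 65.7, 193 and 152 CPM in O FIS, again without overlap (3.14 ± 0.71, adjusted p = 0.0298, edgeR). Pdcd1 was at 4.82, 0, 2.65 and 2.79 CPM in Y FIS and at 46.3, 15.4, 38.1 and 38.4 CPM in O FIS (3.60 ± 0.58, adjusted p = 0.00617, edgeR). Ccl5 was at 1630, 3060, 945 and 1700 CPM in Y FIS and at 10700, 10200, 10600 and 11300 CPM in O FIS, where the 4 old libraries were almost equal (2.54 ± 0.41, adjusted p = 0.00565, edgeR). Lef1, Dapl1, Igfbp4 and S1pr1 were the 4 of 12 naive and homing genes that fell, with log2 fold changes of -1.22, -2.33, -2.30 and -1.0, and without the cells with thymocyte genes 8 of the 12 fell. Trgv2, a T cell receptor gamma segment, was at 1.61, 3.33, 0.531 and 3.72 CPM in Y FIS and at 37.5, 12.6, 34.9 and 23.4 CPM in O FIS, among the 3 largest increases without overlap (3.65 ± 0.78, adjusted p = 0.0235, edgeR). Of the 15 fits that left out 1 library, Pdcd1, Ccl5, Lef1 and Ly6a were DARs in all, while the call was lost in 8 for S1pr1, 4 for Gzmk, 3 for Trgv2, 2 for Dapl1 and 1 for Igfbp4. Without O FIS M1 the adjusted p was 0.123 for Gzmk and 0.153 for S1pr1, and without Y FIS M1 it was 0.114 for Trgv2 (edgeR).

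Gzmb did not pass between the fisetin groups. It was at 11.2, 71.6, 0 and 11.1 CPM in Y FIS and at 256, 243, 31.7 and 159 CPM in O FIS. Y FIS F2 was above O FIS F1, and the log2 fold change of 3.14 ± 0.85 had an adjusted p of 0.0652 (edgeR), or 0.0188 without the cells with thymocyte genes. Of the 12 cytotoxic genes 4 rose, of the 4 chemokines all 4, of the 11 inhibitory and exhaustion genes 3, and of the 14 interferon-stimulated genes 1, Ly6a. Of all RNAs, 1.92% were DARs here. Among the 15 fits that left out 1 library, the call was lost in 9 for Ccl3, 7 for Nkg7, 5 for Xcl1 and 2 for Ccl4. It was lost in 1 for Fasl, Lag3 and Entpd1 and in 0 for Ifng. Without the cells with thymocyte genes, 4.86% of all RNAs were DARs. There 8 cytotoxic, 4 chemokine, 5 inhibitory and exhaustion and 2 interferon-stimulated genes rose, as did 7 of the 15 surface receptors, of which 0 passed with all cells. Ifi27l2a, for example, was at 215, 163, 696 and 277 CPM in O FIS against 199, 281, 193 and 220 CPM in Y FIS, so that only O FIS F1 stood out. The difference of the age effects between vehicle and fisetin was tested itself, and no RNA passed (0 of 9484, smallest adjusted p = 0.931, edgeR, and 0 by DESeq2). At an unadjusted p under 0.05 (edgeR) there were 396 RNAs (4.18%). Without the filter on low counts some RNAs were DARs, as given under how the results depend on the processing.

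**Figure D4:**
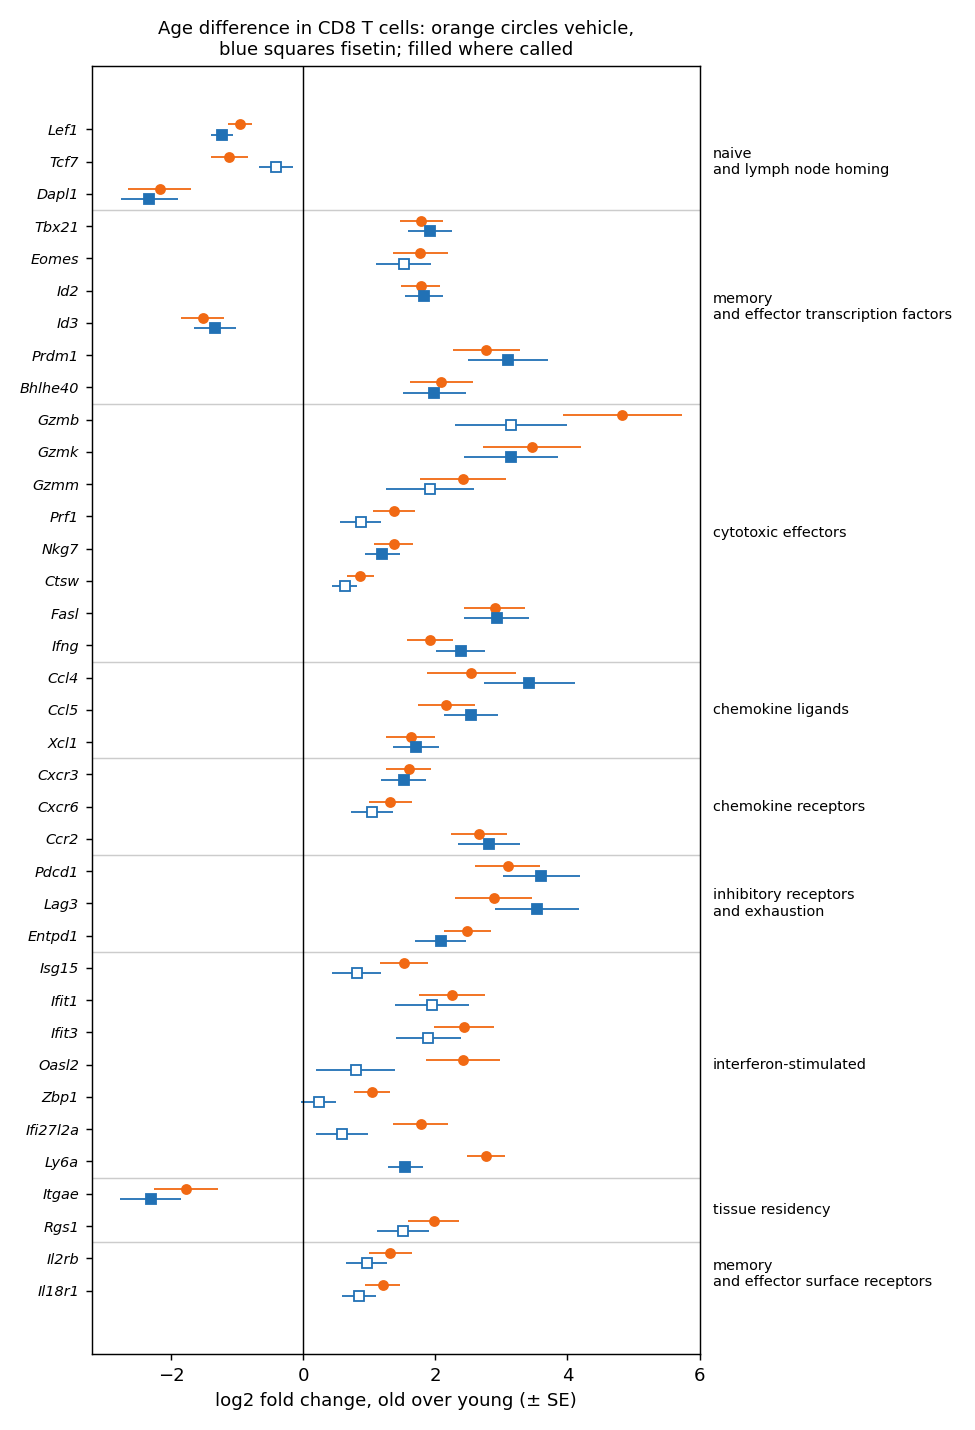
Log2 fold change (± SE) of old over young in CD8 T cells for list genes that were DARs between the vehicle groups, grouped by list. Orange circles are O VEH over Y VEH and blue squares O FIS over Y FIS, filled where the gene was a DAR. All pairs shown have the same sign, and 6 of the 7 interferon-stimulated genes are open between the fisetin groups.

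With the filter on low counts, no RNA of CD8 T cells passed the test for fisetin. Without that filter some RNAs were DARs in both fisetin comparisons, as given under how the results depend on the processing. Between O FIS and O VEH no RNA was a DAR of 9484 tested (0%, smallest adjusted p = 0.354, edgeR; 264 RNAs, 2.78%, at an unadjusted p under 0.05; 1 by DESeq2, the haemoglobin gene Hbb-bt). Between Y FIS and Y VEH none was a DAR either (smallest adjusted p = 0.906, edgeR; 491 RNAs, 5.18%, at an unadjusted p under 0.05; 0 by DESeq2). On simulated counts, the test between O FIS and O VEH found 92.4% of RNAs changed by a log2 fold change of 2, 49.3% of those changed by 1 and 1.49% of those changed by 0.5, so most differences of 0.5 were not detectable at this size. Each share was of 66 or 67 RNAs and asked only for an adjusted p under 0.05 (edgeR), without the limit on detection of a DAR. The changed RNAs were drawn at random, with counts from each RNA's mean over all libraries and its fitted spread. Uneven cell mixtures of the libraries were not simulated. These shares are thus averages and need not hold for a single gene with a wide spread.

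Of the genes with the largest age difference, the haemoglobin genes were lower in O FIS, with log2 fold changes over O VEH of -4.46 ± 0.98 for Hba-a1 and -6.31 ± 1.12 for Hbb-bt that did not pass (adjusted p = 1.00 and 0.354, edgeR). Epha3 had -0.20 ± 0.59 and Car5b -0.45 ± 0.57. For 6 genes chosen from the results above, the log2 fold change was 0.19 ± 0.63 for Gzmk, -0.26 ± 0.73 for Gzmb, -0.40 ± 0.42 for Pdcd1, 0.04 ± 0.41 for Ccl5, 0.07 ± 0.18 for Lef1 and -0.22 ± 0.33 for S100a6. None of these passed, and the standard errors leave room for changes in either direction. Ly6a was at 423, 373 and 248 CPM in O VEH and at 258, 193, 301 and 278 CPM in O FIS, and it did not pass (log2 fold change -0.43 ± 0.27). Between O FIS and Y VEH, 224 RNAs were DARs (2.36%), 175 higher (1.85%) and 49 lower (0.517%), with Epha3, Gzmb and Gm15987 as the largest increases without overlap and Atp1b1, Dapl1 and Basp1 as the largest decreases.

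The summed levels do not say how many cells carried an RNA, so shares of cells with a UMI were taken after each cell was thinned to 1000 UMIs. Gzmk was found in 0.444%, 1.70%, 0.775% and 4.67% of CD8 T cells in Y VEH and in 6.01%, 9.09% and 20.3% in O VEH. It was found in 2.78%, 0%, 0.573% and 2.63% in Y FIS and in 15.1%, 10.7%, 18.4% and 14.1% in O FIS. All 7 old libraries were above all 8 young ones. In endothelial cells, which lack the gene, the share was 0 to 0.612% per library at the same thinning, with median depths of 3180 to 5105 UMIs against 5398 to 12896 UMIs in CD8 T cells. Without thinning, and with the cells of a group pooled, Gzmk was found in 4.27% (Y VEH), 2.32% (Y FIS), 34.2% (O VEH) and 36.5% (O FIS). The means over libraries were 5.50%, 3.62%, 38.7% and 34.8%, so the order of the old groups depended on the pooling.

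Pdcd1 was found in 0 to 0.935% of thinned cells in Y VEH and 0 to 1.39% in Y FIS, but in 1.77 to 16.7% (O VEH) and 2.17 to 4.76% (O FIS) in old mice, against 0 to 0.102% of endothelial cells per library. Without thinning the shares of the pooled cells of each group were 3.42%, 1.49%, 19.9% and 15.7%, with library means of 3.94%, 1.75%, 24.8% and 14.9%. Ccr7 was found in 8.0 to 13.6% (Y VEH), 11.2 to 16.7% (Y FIS), 3.05 to 7.07% (O VEH) and 1.09 to 10.7% (O FIS), against 0 to 0.310% of endothelial cells per library. Without thinning it was found in 46.9%, 55.7%, 27.7% and 27.4% of the pooled cells, with library means of 46.2%, 57.2%, 23.2% and 27.5%. The exact permutation p was 0.0571 for O VEH against Y VEH and 0.0286 for O FIS against Y FIS with each of the 3 genes, the smallest that the design allows, and the adjusted p was 0.114. For Ccr7, O VEH at 7.54 to 44.2% overlapped Y VEH at 38.1 to 57.1% without thinning (exact permutation p = 0.171), and O FIS overlapped Y FIS at 1500 UMIs (exact permutation p = 0.0571). For Pdcd1, the p of O VEH against Y VEH was 0.114 (exact permutation) with both Cd8a and Cd8b1 required. Between Y FIS and Y VEH the share with Pdcd1 had an exact permutation p of 0.571 at 1000 UMIs, and at 1500 UMIs the means were 0.0725% and 1.30% (exact permutation p = 0.0286, adjusted p = 0.0571). Thinning left out 14 cells in all, and fewer CD8 T cells with an RNA and less of it per cell cannot be told apart in the summed levels.

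Cells of the 7 old libraries were then thinned to 3000 UMIs (1023 cells, 30 left out) and split by Gzmk, as a description with libraries weighted equally. Of the 274 cells with Gzmk, 80.2% had Tox, against 33.7% of the 749 without it, and Tox was more frequent in all 7 libraries. Pdcd1 was found in 23.8% against 5.47%, Eomes in 37.9% against 16.2% and Epha3 in 29.6% against 5.77%, each higher in 7 of 7 libraries. Ccr7 was found in 3.38% against 13.8% and Lef1 in 28.5% against 54.0%, each lower in 7 of 7. The Gzmk cells thus had Tox, Pdcd1 and Epha3 more often and Ccr7 and Lef1 less often than the other old CD8 T cells. Tox was not rarer in young cells at this thinning, at 48.6% (Y VEH) and 53.9% (Y FIS) against 48.4% (O VEH) and 45.9% (O FIS). Cells of a library are not replicates, and these shares carry no test.

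The cells with Gzmb shared some of these differences and not others. Ccr7 was found in 2.61% of cells with Gzmb against 12.9% of cells without it and Lef1 in 29.3% against 50.2%, each lower in 7 of 7 libraries, and Ccl4 was found in 45.1% against 19.1%, higher in 7 of 7. Lag3 was found in 17.6% against 8.62% and was higher in 6 of 7. Of the 202 cells with Gzmb, 38.8% had Lgals3, against 13.2% of the 821 without it, and 78.0% had Id2 against 49.8%, each higher in 7 of 7 libraries. Gzma was found in 19.6% against 4.02% and was higher in 5 of 7. Tox was found in 40.2% against 49.0% and Pdcd1 in 8.39% against 11.3%, and both were higher in only 2 of 7 libraries. Gzmb itself was found in 20.3% of cells both with and without Gzmk, with libraries from 7.69 to 33.3% and from 2.14 to 30.9%, and Gzmk in 33.6% of cells with Gzmb against 27.6% of the rest, higher in 4 of 7 libraries. Ccl5 was common in all old CD8 T cells, found in 98.2% of Gzmk cells against 75.5% of the rest, and in 96.8% of Gzmb cells against 78.5%.

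**Figure D5:**
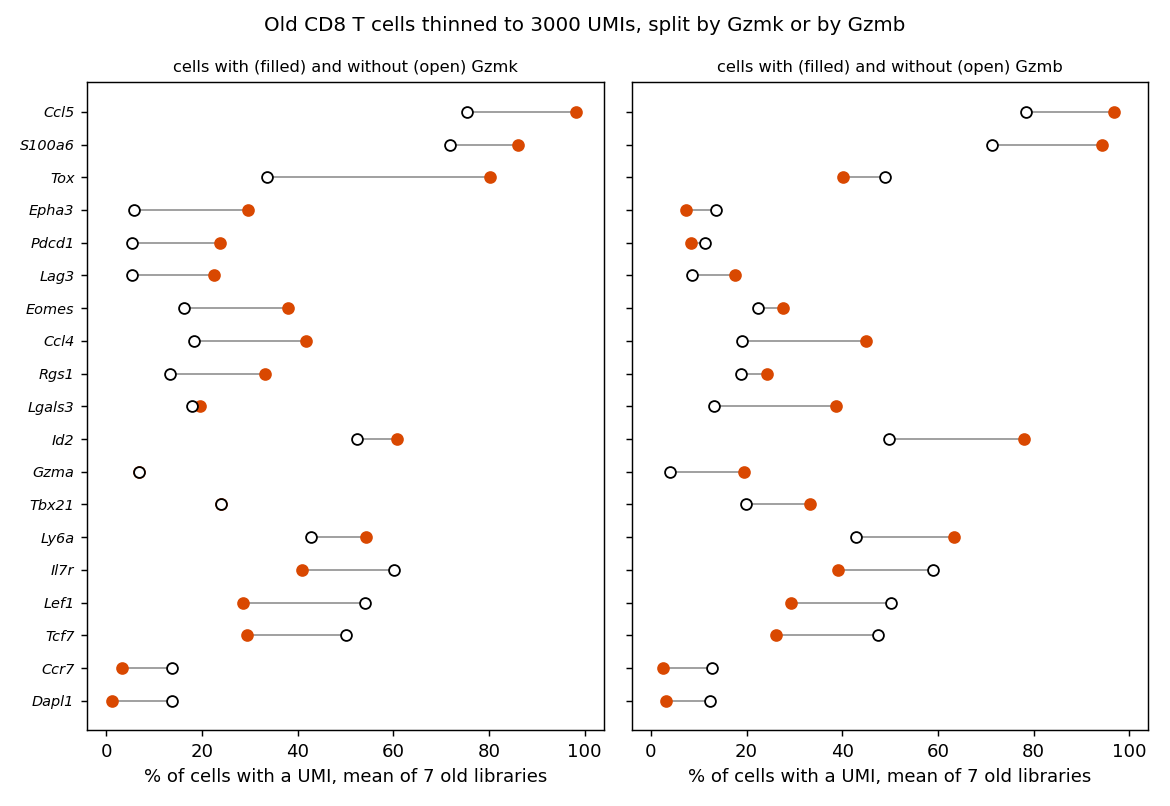
Percentage of old CD8 T cells with a UMI of each gene, mean of 7 old libraries after thinning to 3000 UMIs, in cells with (filled) and without (open) Gzmk on the left and Gzmb on the right. Tox, Epha3 and Pdcd1 are more frequent with Gzmk and not with Gzmb, and Lgals3 and Gzma are more frequent with Gzmb. Id2 is more frequent with both, at 60.8% against 52.5% for Gzmk and 78.0% against 49.8% for Gzmb.

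Conventional CD4 T cells, chosen from the same libraries by Cd4 without Foxp3 (1228 cells), were set beside the CD8 T cells, with 68 of 7684 RNAs as DARs between O VEH and Y VEH (0.885%). Gzmk and Ly6a had the same direction there: Gzmk had a log2 fold change of 4.22 ± 0.74 in CD4 and 3.47 ± 0.74 in CD8 T cells, and Ly6a of 1.74 ± 0.28 and 2.77 ± 0.28. Pdcd1 had 1.12 ± 0.83 in CD4 (adjusted p = 0.698, edgeR) and 3.10 ± 0.49 in CD8 T cells. The difference of the age effect between CD8 and CD4 T cells, with the library as a block, passed for 1 of 9716 RNAs (0.0103%), Hbb-bt, with 493 RNAs (5.07%) at an unadjusted p under 0.05 and 0 by DESeq2. For Pdcd1 this difference was 1.93 ± 0.71 (adjusted p = 0.753) and for Isg15 1.43 ± 0.34 (adjusted p = 0.295, edgeR), so none of the CD8 T cell genes named above was shown to be particular to these cells. The call for Hbb-bt was lost by DESeq2 and with at least 50 cells per library, and the neighbouring gene Hbb-bs had a UMI in 47.7% of CD8 T cells, 42.2% of CD4 T cells, 44.9% of endothelial cells and 48.6% of B cells of O VEH without thinning. Without the cells with thymocyte genes, Klrd1, the gene of the NK receptor chain CD94, also passed (2 of 9427 RNAs, 0.0212%), with a difference of -2.63 (CD8 minus CD4).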

How the data were processed

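Single-cell RNA of 15 libraries of dissociated aortas was counted by the authors with Cell Ranger 8.0.1 against GRCm39, per the submitters' processing notes (which also name Seurat 5.2.0), and deposited as raw UMI counts per gene and barcode. The deposited counts were used here without the authors' filters. CD8 T cells were selected by the rule given above, and Scrublet calls (below 0.5% in 3 libraries, so without effect there; 16 CD8 T cells called) were used only as an alternative. Members and gene lists were chosen with earlier results of these data known.

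Counts were summed per library and tested with edgeR 4.0.16 (TMM, filterByExpr, quasi-likelihood, all 15 libraries, terms for group and sex) in R 4.3.3 with Benjamini-Hochberg adjustment. SE was the log2 fold change divided by the root of F. The difference from conventional CD4 T cells was fitted with the library as a block. Shares were compared by two-sided exact permutation tests (scipy 1.17.1). Genes were named by list membership and, for the 12 largest increases and decreases (3 in the other age comparisons), among DARs without overlap. Total UMIs per library were 49964001 to 74587567. The test was also run on simulated counts of 9484 RNAs. Alternatives were DESeq2 1.42.0, other normalization, filters, cell rules and leaving out each library. A few genes that entered the fits and list counts are not reported here by name. The thymocyte genes and the alternative without them were chosen after seeing the data.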

Additional observations from a re-analysis of the deposited data

Results flagged for a closer look

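In groups of 4 libraries, 102 sets of values were screened for a library far from the others, which chance marks in about 1 of 20, and 9 were marked. The share of CD8 T cells with a thymocyte gene UMI was 47.8% in Y VEH F1, against 4.65 to 10% in the other Y VEH libraries, and 29.8% in O FIS F2, against 0 to 2.38% in the other O FIS libraries. Pdcd1 was found in 0% of thinned cells in Y VEH F2, against 0.775 to 0.935%. Gzmb was at 71.6 CPM in Y FIS F2, against 0 to 11.2 CPM. Ccl4 was at 550.4 CPM in O FIS M2, against 173 to 219 CPM, and Dapl1 at 144 CPM in the same library, against 47.8 to 60.6 CPM. Entpd1 was at 19.1 CPM in Y VEH M2, against 4.71 to 6.71 CPM. Atp1b1 was at 49.2 CPM in Y FIS M2, against 30.5 to 33.3 CPM. Epha3 was at 10.6 CPM in Y FIS M1, against 0 to 1.61 CPM.

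The age effect on Hbb-bt differed between CD8 and CD4 T cells by a log2 fold change of 6.98 (adjusted p = 0.0326, edgeR, interaction of cell type and age). Its level in CD8 T cells was 3320 CPM in O VEH F1, 1080 CPM in O VEH M1 and 5.41 CPM in O VEH F2. The source of this RNA was not tested.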

How the results depend on the processing

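DARs between O VEH and Y VEH numbered 741 with no filter on low counts and 122 in cells of at most 7000 UMIs. They ranged from 191 to 428 when a library was left out, with 208 without Y VEH F1, 242 without Y VEH F2, 191 without O VEH F1 and 246 without O VEH F2. DARs between O FIS and Y FIS numbered 534 with no filter, 330 by DESeq2, 364 with only these groups in the fit, 62 at most 7000 UMIs, 354 without NK or gamma delta UMIs and 451 without the cells with thymocyte genes. They ranged from 30 to 267 without a library, with 62, 30, 74 and 56 without Y FIS F1, Y FIS M1, Y FIS M2 and O FIS M1. Between O FIS and O VEH there were 23 with no filter, 1 by DESeq2 and 0 to 3 without a library, the 3 without O VEH F2. Between Y FIS and Y VEH there were 106 with no filter, and for the difference of the age effects 97. Between O FIS and Y VEH there were 527 with no filter, 3 at most 7000 UMIs and 75 to 257 without a library, with 85, 107, 132, 75 and 131 without Y VEH F1, Y VEH F2, Y VEH M2, O FIS M1 and O FIS M2. For CD8 against CD4 T cells there were 81 with no filter, 0 by DESeq2 or with at least 50 cells per library, 2 at most 7000 UMIs or without the cells with thymocyte genes, and 0 to 6 without a library. Of DARs between O VEH and Y VEH, 72.9% were higher, 82.9% without O VEH F2 and 54.0% without the cells with thymocyte genes. The causes were not tested.

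Libraries share only a number within sex, and same-numbered libraries did not deviate together (correlations -0.48 to 0.07). With the replicate block, DARs numbered 250 between O VEH and Y VEH, 117 between O FIS and Y FIS and 133 between O FIS and Y VEH.

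Small differences in shares, in percentage points, changed direction. The CD8 share of T cells between O FIS and O VEH was 5.36 among CD8 and CD4 T cells, and between O FIS and Y FIS it ranged from -2.24 to 4.85 without a library. The CD8 share of all cells between O VEH and Y VEH was 0.0529 with both Cd8a and Cd8b1, 0.203 without the cells with thymocyte genes, 0.744 among cells with Ptprc and -0.717 to 0.426 without a library. Among cells with Ptprc it was -1.61 between O FIS and Y FIS and 0.713 between Y FIS and Y VEH, and without a library -0.267 to 0.390 between O FIS and Y FIS. The Gzmk share between O FIS and O VEH was -3.84 without thinning and -0.116 to 7.03 without a library, and between Y FIS and Y VEH 0.143 at 1500 UMIs and -0.888 to 0.522 without a library. The Ccr7 share between O FIS and O VEH was -0.0663 with both Cd8a and Cd8b1 and -1.79 to 1.42 without a library. Of 69 named DARs between O VEH and Y VEH, 30 were kept whichever library was left out and 0 reversed. Beside those described with their values, calls were lost in 6 fits for Eomes, in 5 for Acta2, Cxcr6 and Il2rb, in 4 for Bhlhe40, Camk1d and Tcf7, in 3 for Il18r1, Prf1, Tap1 and Xcl1, in 2 for Ctsw, Dapl1, Hbb-bt, Id3 and Lgals1 and in 1 for Cxcr3 and Nkg7. The most were lost without O VEH M1 (26), O VEH F1 (25) and Y VEH F2 (22). Without a fisetin library, which is outside this comparison, at most 7 were lost (Y FIS F1). Of the 69, 21 were kept in cells of at most 7000 UMIs (29 were lost and the rest were not tested), 54 with the replicate block, 54 with only the groups compared, and 62 to 69 under the other alternatives. Of 37 named DARs between O FIS and Y FIS, 13 were kept whichever library was left out.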
